A study of Mus musculus with 18 samples.

Results

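The genes described here encode the matrix metalloproteinases (Mmp), the ADAM proteinases, the secreted ADAMTS proteinases with their ADAMTS-like relatives, and the tissue inhibitors of metalloproteinases (Timp). They were chosen by symbol alone, as every gene whose symbol starts with Mmp, Timp or Adam and a number, or with Adamts. That gave 73 of the 19197 genes listed: 21 Mmp, 4 Timp, 24 Adam, 19 Adamts and 5 Adamts-like genes. RNA was measured in the cardiac apex of C57BL/6 mice, an inbred strain, 1 day after surgery, in 3 groups of 6 libraries. The sham_vehicle hearts had a sham operation and vehicle, the MI_vehicle hearts a myocardial infarction (MI) and vehicle, and the MI_DCA hearts an infarction and DCA at 10 mg/kg per day. DCA is not spelled out in the labels and is taken here as deoxycholic acid, a bile acid, because the study's title names it with the bile acid receptor TGR5. No group of sham-operated mice given DCA was analysed here, and the labels give neither age nor sex. Nor do they say whether the libraries of a group came from different mice. The p-values rest on the spread among libraries, which may be technical.

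Matrix metalloproteinases are zinc enzymes that cut collagens, elastin and other proteins of the extracellular matrix, and most are made as inactive precursors. TIMPs bind the active enzymes and block them. ADAMs are membrane proteins, many of which cut other membrane proteins from the cell surface, and ADAMTS enzymes are secreted and cut proteoglycans, procollagens and other matrix proteins. In an infarct these families are known for the breakdown and rebuilding of the matrix, and inflammatory cells that enter the tissue bring several of them.

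Values are FPKM, read counts scaled to transcript length and to the depth of the library. The libraries were made by capture, which may differ in efficiency between genes. Ranks and shares between genes are therefore those of FPKM and need not be those of transcript number. Whether a gene listed at 0 was captured is not known here. Fold changes are differences of log2(FPKM + 1), which understate the change of low genes, with their standard error (SE) and the Benjamini-Hochberg adjusted p of limma over all genes tested. A gene was tested if at least 6 of the 12 libraries compared reached 1 FPKM, and called at an adjusted p under 0.05. Of the 73 genes, 4 (Adam29, Adam6b, Adam7 and Mmp20) were listed at 0 in every library, 26 stayed below 1 FPKM in every library, and 44 were tested in at least 1 comparison. Most of the testis-associated ADAMs were among the low genes, though Adam1a was tested, at group medians of 1.29 to 1.47 FPKM.

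Some infarcted libraries stood apart from the rest of their group. On the first principal component of 12185 other genes, which carried 70.2% of the variance, the sham_vehicle libraries lay at 33.1 to 41.1. MI_vehicle replicate 4 lay on the sham side at 15.0, as did MI_DCA replicates 1, 3 and 5 at 14.4 to 25.4, and the other infarcted libraries lay between -54.6 and -16.6. Counts below are given with all libraries and, where stated, without these 4. They were picked for their place on the sham side, so leaving them out favours larger differences from the sham hearts. Results without them are given as descriptions. Marker sums moved with infarction too. The summed FPKM of 10 neutrophil markers was 10.1 to 36.9 in sham_vehicle, 52.9 to 375 in MI_vehicle and 39.9 to 176 in MI_DCA hearts, and that of 7 monocyte and macrophage markers was 250 to 412, 439 to 936 and 263 to 696. For 7 cardiomyocyte markers the sums were 40190 to 43216, 27299 to 38446 and 26213 to 42887, and for 6 fibroblast markers 607 to 747, 407 to 559 and 296 to 586. Of the cardiomyocyte markers 5 fell in MI_vehicle hearts, Actc1 rose (0.56) and Tnnt2 was not called (-0.28). The fibroblast markers went both ways in MI_vehicle hearts: Dcn, with a median of 441 FPKM in sham_vehicle and 223 in MI_vehicle hearts, and Dpt fell, Col1a1 (0.71) and Pdgfra (0.48) rose, and Lum and Tcf21 were not called. No marker of these lists was at 0 in every library, but only 5 of the 10 neutrophil markers passed the filter in MI_vehicle against sham_vehicle hearts. The largest parts of their sum in MI_vehicle hearts were S100a8 and S100a9, with medians of 33.4 and 62.0 FPKM. Mpo, Elane, Camp, Ltf and Ngp had medians of at most 0.405 FPKM there. In bulk tissue fewer cells of a type and less RNA per cell cannot be told apart, and the part of cell composition in the results was not tested.

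The first comparison asks which of these genes differ between infarcted and sham-operated hearts. Of the 40 genes tested, 18 were higher in MI_vehicle hearts, where 38.3% of all 11969 genes tested were called higher, and 14 were lower, where 20.1% of all genes were called lower. In either direction that was 32 genes, against 58.4% of all genes. The median difference of the 40 genes was 0.05 against 0.12 for all genes, and median-ratio scaling brought the latter to -0.005. Without MI_vehicle replicate 4 the counts were 18 and 15, where 42.0% and 23.1% of all genes were called. The sections that follow take inhibitors, matrix metalloproteinases, ADAMs and ADAMTS genes in turn.

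Among the inhibitors, Timp1 rose and the other 3 fell. Timp1, the inducible member of the family (chromosome X, 20870166 to 20874737, GRCm38.p6), had a lowest, median and highest value of 14.8, 21.4 and 27.2 FPKM in sham_vehicle hearts. In MI_vehicle hearts the values were 81.7, 342 and 686, and in MI_DCA hearts 50.6, 127 and 340. Every infarcted heart lay above every sham heart. The lowest value in each infarcted group belonged to a heart on the sham side of the first component, MI_vehicle replicate 4 and MI_DCA replicate 3. The log2 fold change in MI_vehicle against sham_vehicle hearts was 3.83 (SE 0.38, adjusted p = 2.1e-05), and 4.20 without MI_vehicle replicate 4.

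Timp4, whose expression is known to be strong in the heart (chromosome 6, 115244444 to 115252205), moved the other way. It measured 22.7, 32.1 and 38.9 FPKM (lowest, median and highest) in sham_vehicle hearts and 2.39, 10.9 and 13.7 in MI_vehicle hearts, with no overlap between these groups. In MI_DCA hearts it spread over 4.35, 14.7 and 30.1 and reached into the sham range in replicates 3 and 5. It fell by 1.87 in MI_vehicle hearts (SE 0.33, adjusted p = 0.000562). Timp2, which also helps to activate pro-MMP2 on the cell surface (chromosome 11, 118301061 to 118355411), measured 51.4, 55.8 and 58.2 FPKM in sham_vehicle and 30.5, 33.1 and 40.3 in MI_vehicle hearts. These groups did not overlap either, and Timp2 fell by 0.65 (SE 0.08, adjusted p = 8.08e-05). Timp3, which is bound to the matrix and inhibits several ADAMs (chromosome 10, 86300412 to 86349505), measured 67.9, 89.6 and 110 FPKM in sham_vehicle and 39.7, 52.6 and 69.6 in MI_vehicle hearts. The groups met at their edges, where the lowest sham heart lay below the highest infarcted one, and Timp3 fell by 0.74 (SE 0.15, adjusted p = 0.00115).

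The make-up of the summed TIMP FPKM therefore differed between the groups. Timp1 made up 7.13% to 12.6% of the summed FPKM of the 4 genes in sham_vehicle hearts, with a median of 11.8%. In MI_vehicle hearts the share ran from 41.3% to 90.1% with a median of 77.8%, and in MI_DCA hearts from 24.4% to 82.0% with a median of 49.6%. Timp3 held the highest share in sham_vehicle hearts, at a median of 44.4%, and 12.6% in MI_vehicle hearts. The sum itself had a median of 200 FPKM in sham_vehicle, 428 in MI_vehicle and 259 in MI_DCA hearts. By median level among all 73 genes, Timp1 ranked 9 in sham_vehicle hearts and 1 in both infarcted groups.

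**Figure D1:**
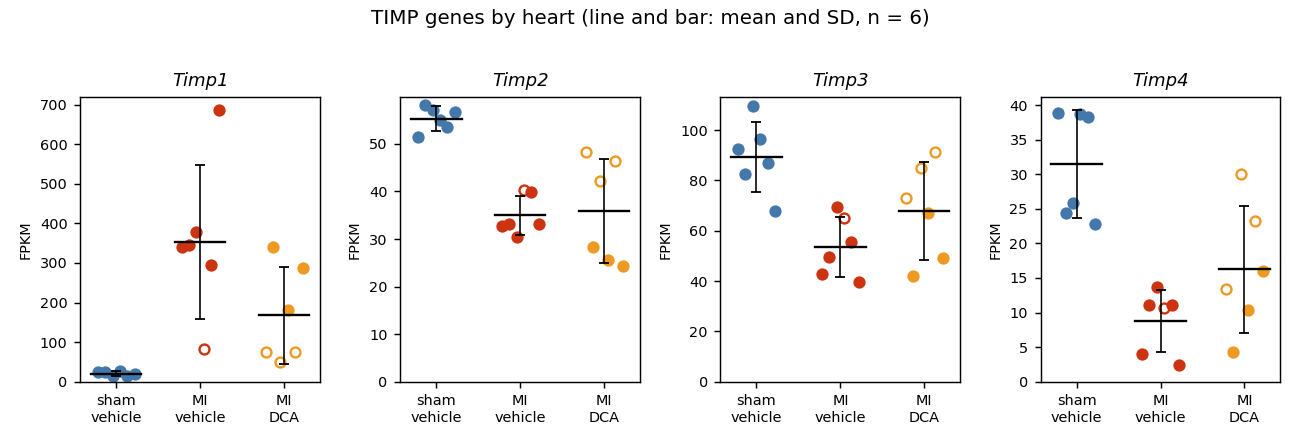
FPKM (vertical axis, from 0) of the 4 Timp genes in every library of the 3 groups. Points are libraries, hollow where an infarcted library lay on the sham side of the first component, and lines and bars are mean and SD over 6 libraries. Timp1 of every infarcted heart lies above the sham maximum of 27.2 FPKM, while Timp2 and Timp4 of every MI_vehicle heart lie below the sham minimum.

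Of 12 matrix metalloproteinase genes tested, 5 rose and 4 fell, beside 38.3% and 20.1% of all genes. The gelatinases Mmp2 and Mmp9, which cut denatured collagen and basement membrane collagen, went in opposite directions. Mmp2, which is known as a constitutive product of mesenchymal cells (chromosome 8, 92827290 to 92853421), measured 28.1, 33.0 and 39.1 FPKM in sham_vehicle, 8.69, 14.9 and 26.9 in MI_vehicle and 8.20, 17.2 and 28.7 in MI_DCA hearts. No MI_vehicle heart reached the sham range, and the highest of them was replicate 4. Mmp2 fell by 1.08 (SE 0.20, adjusted p = 0.000665). The fibroblast marker sum was also lower in every MI_vehicle heart than in every sham heart, though 2 of its 6 genes rose. Dcn had a median of 441 FPKM in sham_vehicle hearts beside a median sum of 700, and 223 in MI_vehicle hearts beside 511. The part of fibroblasts in the result was not tested.

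Mmp9, a gelatinase stored in neutrophil granules (chromosome 2, 164940326 to 164955850), measured 0.73, 0.965 and 2.51 FPKM in sham_vehicle, 2.33, 6.18 and 10.7 in MI_vehicle and 1.5, 2.69 and 5.13 in MI_DCA hearts. MI_vehicle replicate 4 alone fell inside the sham range, and the highest value was that of replicate 2. The difference between MI_vehicle and sham_vehicle hearts was 1.54 (SE 0.27, adjusted p = 0.000568). Mmp8, the neutrophil collagenase, was below the filter for this comparison. It measured 0.12, 0.235 and 0.63 FPKM in sham_vehicle, 0.92, 3.08 and 8.32 in MI_vehicle and 0.65, 1.19 and 3.78 in MI_DCA hearts, and no infarcted heart overlapped the sham hearts. With no filter its difference was 1.76 (adjusted p = 0.00208). In MI_vehicle replicates 1 to 6 the neutrophil marker sum was 52.9, 375, 247, 74.4, 68.5 and 189, beside 0.92, 8.32, 3.07, 1.49, 3.1 and 7.72 FPKM of Mmp8. Both genes were highest in replicate 2, where the sum was too. Mmp8 was at 3.07 and 3.1 FPKM in replicates 3 and 5, with sums of 247 and 68.5, and Mmp9 was lowest in replicate 4. The part of these cells was not tested. Mmp13, the main interstitial collagenase of rodents, stayed between 0.26 and 1.18 FPKM over the sham_vehicle and MI_vehicle hearts, with a difference of 0.35 (adjusted p = 0.0154) when no filter was applied.

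Mmp14 encodes a membrane-bound collagenase that activates pro-MMP2 (chromosome 14, 54431598 to 54442456). It measured 6.44, 9.22 and 14.1 FPKM in sham_vehicle, 13.2, 35.6 and 54.8 in MI_vehicle and 11.5, 19.0 and 35.7 in MI_DCA hearts. Only MI_vehicle replicate 4 lay within the sham range, and the other 5 MI_vehicle hearts were all at 31.4 FPKM or more. Mmp14 rose by 1.67 (SE 0.27, adjusted p = 0.000348). Its share of the summed FPKM of the 21 Mmp genes had a median of 8.64% in sham_vehicle and 25.9% in MI_vehicle hearts, while that of Mmp2 was 30.3% and 10.9%. The other membrane-type gene called, Mmp15, measured 28.3, 31.1 and 36.3 FPKM in sham_vehicle and 13.7, 22.3 and 28.8 in MI_vehicle hearts. These ranges met only through MI_vehicle replicate 4, and Mmp15 fell by 0.59 (SE 0.15, adjusted p = 0.00536).

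Mmp3, Mmp12, Mmp13, Mmp10 and Mmp8 are neighbours in a cluster of 8 of the genes on chromosome 9, from Mmp13 at 7272514 to the end of Mmp7 at 7699585, 427 kb in all. They were not alike in level. Mmp3, or stromelysin 1, which cuts proteoglycans and activates other pro-MMPs, measured 5.80, 9.45 and 12.8 FPKM in sham_vehicle and 14.4, 19.8 and 32.3 in MI_vehicle hearts. The groups did not overlap, and Mmp3 rose by 1.06 (SE 0.19, adjusted p = 0.000555). Mmp12, the macrophage elastase, measured 0.22, 0.35 and 1.22 FPKM in sham_vehicle and 1.19, 4.31 and 10.9 in MI_vehicle hearts. Its ranges met only where sham_vehicle replicate 3, the one high sham heart, passed MI_vehicle replicate 4, and its difference was 1.94 (SE 0.31, adjusted p = 0.000344). Mmp10, or stromelysin 2, was listed at 0 in all 6 sham_vehicle hearts and reached 0.16 FPKM in MI_vehicle hearts. With no filter its limma difference was 0.14 (adjusted p = 0.00645). Mmp20 was listed at 0 throughout.

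The 250 bases before the start of these genes are shown because some of the cluster share 1 set of letters there. The letters TGANTCA, the binding motif of the AP-1 transcription factors, were searched on both strands of RefSeq promoters (GRCm38.p6). They stood in 6 of the 8 cluster genes, all but Mmp8 and Mmp27, and elsewhere among the family in Adam19 and Adam29. Of 51 promoters found for 46 of the 73 genes, 15.7% held the letters, against 6.75% of all 32851 promoters. Of the 8 promoters with the letters, 6 lie in the cluster, so the excess is not spread over the family. Capitals mark the motif in the Mmp promoters below, and the Timp1 promoter, which holds no such letters in this window, is given for the gene with the largest rise. Mmp12 has more than one listed start: the window shown lies before an inner start, within the gene, and the window before its outer start at 7344397 holds no such letters. Mmp7 also has 2 listed promoters, and the letters were not found in both. The regions, all on the plus strand, are chr9:7445572-7445821, chr9:7502092-7502341, chr9:7347124-7347373, chr9:7272264-7272513 and chrX:20869916-20870165.
Mmp3: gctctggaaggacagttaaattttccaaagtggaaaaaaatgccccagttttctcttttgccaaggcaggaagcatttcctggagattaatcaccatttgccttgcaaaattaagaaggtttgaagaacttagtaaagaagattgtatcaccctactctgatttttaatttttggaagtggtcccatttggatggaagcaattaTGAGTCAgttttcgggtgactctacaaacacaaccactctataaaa
Mmp10: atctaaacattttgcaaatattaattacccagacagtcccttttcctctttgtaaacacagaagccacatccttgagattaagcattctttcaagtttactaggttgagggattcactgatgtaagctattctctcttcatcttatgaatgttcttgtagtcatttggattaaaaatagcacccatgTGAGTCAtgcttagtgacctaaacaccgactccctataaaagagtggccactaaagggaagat
Mmp12: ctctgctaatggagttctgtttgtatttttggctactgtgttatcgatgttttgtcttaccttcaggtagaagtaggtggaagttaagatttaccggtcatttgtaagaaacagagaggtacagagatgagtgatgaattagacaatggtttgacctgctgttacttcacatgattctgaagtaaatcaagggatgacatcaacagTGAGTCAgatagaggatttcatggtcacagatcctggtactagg
Mmp13: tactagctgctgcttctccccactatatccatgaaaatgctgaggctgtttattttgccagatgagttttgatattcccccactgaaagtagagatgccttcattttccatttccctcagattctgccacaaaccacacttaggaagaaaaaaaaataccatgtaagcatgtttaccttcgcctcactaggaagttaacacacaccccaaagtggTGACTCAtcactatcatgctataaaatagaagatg
Timp1: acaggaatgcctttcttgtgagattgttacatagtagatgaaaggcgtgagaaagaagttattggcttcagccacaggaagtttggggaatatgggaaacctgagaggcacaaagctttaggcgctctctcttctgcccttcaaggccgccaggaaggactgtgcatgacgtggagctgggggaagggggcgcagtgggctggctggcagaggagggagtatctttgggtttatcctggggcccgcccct

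The first base of the motif lay 46 bases before the start of Mmp3, 63 before that of Mmp10, 44 before the inner start of Mmp12 and 35 before that of Mmp13. Mmp3 and Mmp12 rose with infarction. Mmp10 and Mmp13 were also higher when no filter was applied, by 0.14 and 0.35, but stayed at low levels. Mmp7 and Mmp20 with the same letters stayed below 1 FPKM in every library. Of the cluster genes without the letters, Mmp8 was higher by 1.76 and Mmp27 differed by 0.05 with no filter. Adam8, Mmp14 and Adamts1 hold no such letters in this window and rose as well. A link between the letters and the changes was not tested. A match of letters is a description and shows no binding.

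Among the remaining Mmp genes, Mmp19, a secreted enzyme of basement membrane substrates, measured 1.67, 2.34 and 2.69 FPKM in sham_vehicle and 4.40, 5.37 and 8.93 in MI_vehicle hearts. The groups did not overlap, and it rose by 1.03 (SE 0.13, adjusted p = 9.83e-05). Mmp28, or epilysin, fell by 0.54 (SE 0.16) and Mmp11, or stromelysin 3, by 0.42 (SE 0.14), with adjusted p = 0.0104 and 0.0216. The Mmp11 call was lost without sham_vehicle replicate 2 or MI_vehicle replicate 6, at a highest adjusted p = 0.0519. Mmp17, Mmp23 and Mmp24 were tested and not called, with differences of -0.12, 0.06 and 0.04.

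**Figure D2:**
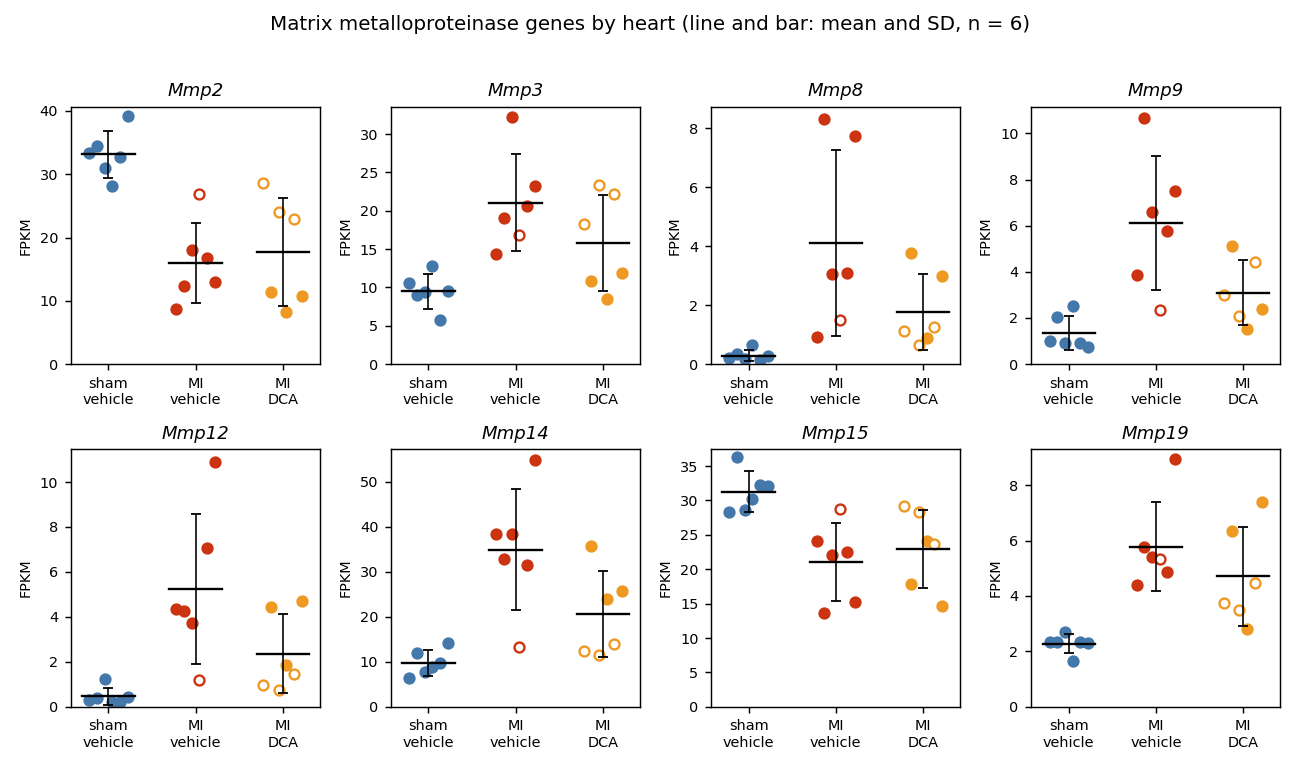
FPKM (vertical axis, from 0) of 8 matrix metalloproteinase genes in every library, with mean and SD over 6 libraries per group and hollow points for infarcted libraries on the sham side of the first component. Mmp2 and Mmp15 are lower and the other 6 genes higher in the MI_vehicle group, and the hollow MI_vehicle point, replicate 4, lies nearest the sham hearts except in Mmp3, Mmp8 and Mmp19.

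Of 11 ADAM genes tested, 7 rose and 2 fell, beside 38.3% and 20.1% of all genes, and those with the largest differences were Adam8, Adam12, Adam9 and Adam19. Adam8, a sheddase of myeloid cells (chromosome 7, 139978932 to 139995207), measured 0.55, 1.12 and 1.43 FPKM in sham_vehicle, 5.74, 19.6 and 23.3 in MI_vehicle and 4.53, 7.16 and 26.3 in MI_DCA hearts. Every infarcted heart lay above every sham heart, and MI_vehicle replicate 4 lay far below the other 5. The difference was 3.10 (SE 0.26, adjusted p = 1.37e-05), and 3.38 without that replicate.

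Adam12, a proteinase known from activated fibroblasts and regenerating muscle, measured 0.66, 0.78 and 0.90 FPKM in sham_vehicle and 1.77, 5.45 and 9.30 in MI_vehicle hearts. All sham hearts were below 1, so it could pass the filter only through the infarcted hearts and had to differ. Its difference of 1.75 is given as a description, and its place among the 18 higher genes supports nothing. Adam9 (chromosome 8, 24949611 to 25017040), a widely expressed sheddase, measured 14.8, 15.9 and 19.5 FPKM in sham_vehicle and 18.1, 38.6 and 57.1 in MI_vehicle hearts. Only MI_vehicle replicate 4 lay within the sham range, and Adam9 rose by 1.08 (SE 0.20, adjusted p = 0.000812). Adam19, which takes part in neuregulin processing and heart development, measured 3.97, 4.86 and 9.89 FPKM in sham_vehicle and 7.54, 12.2 and 13.5 in MI_vehicle hearts. Sham_vehicle replicate 6 was high and MI_vehicle replicate 4 low in this gene, and the difference was 0.93 (SE 0.18, adjusted p = 0.00087). Adam15, the ADAM gene of highest FPKM in sham hearts, measured 36.0, 41.4 and 46.0 FPKM there and 51.9, 60.7 and 71.6 in MI_vehicle hearts. These groups did not overlap, and Adam15 rose by 0.55 (SE 0.10, adjusted p = 0.000818).

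The ubiquitous sheddases Adam10 and Adam17 changed little. Adam17, the TNF-alpha converting enzyme, measured 8.85, 9.96 and 11.7 FPKM in sham_vehicle and 10.2, 11.8 and 13.1 in MI_vehicle hearts, a difference of 0.22 (SE 0.08, adjusted p = 0.0321). Adam10, which cleaves Notch receptors and cadherins, measured 12.5, 14.5 and 15.0 and 13.9, 17.5 and 19.7 FPKM, a difference of 0.27 (SE 0.08, adjusted p = 0.0151). Both pairs of groups overlapped, and both calls were lost with median-ratio scaling and with quantile normalization, where adjusted p reached 0.607 for Adam17 and 0.143 for Adam10. The Adam17 call was also lost without MI_vehicle replicate 1, 2 or 6 or sham_vehicle replicate 1, 3 or 4. Of the 2 ADAM genes that fell, Adam11, which lacks a proteinase active site, fell by 0.69 (SE 0.18, adjusted p = 0.00479). Adam33, a low gene between 0.48 and 1.41 FPKM in both groups, fell by 0.41 (SE 0.12, adjusted p = 0.0117). Adam23, another member without catalytic activity, was below the filter, measured 0.62 to 1.28 FPKM in sham_vehicle and 0.20 to 0.47 in MI_vehicle hearts without overlap, and differed by -0.63 (adjusted p = 0.000278) with no filter. Adam1a and Adam22 were not called.

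ADAMTS genes with the same known substrates did not all move alike. Those that cleave the large proteoglycans versican and aggrecan were Adamts1, Adamts4, Adamts5, Adamts8, Adamts9, Adamts15 and Adamts20. Adamts1 (chromosome 16, 85793827 to 85803113) measured 5.45, 6.63 and 8.29 FPKM in sham_vehicle, 5.64, 24.7 and 38.1 in MI_vehicle and 7.99, 16.7 and 32.4 in MI_DCA hearts. MI_vehicle replicate 4 stayed at the low end of the sham range while the other 5 were at 18.2 or more, and Adamts1 rose by 1.53 (SE 0.33, adjusted p = 0.00186). Adamts4 (chromosome 1, 171250129 to 171262267) was below the filter, at 0.05, 0.145 and 0.37 FPKM in sham_vehicle and 0.82, 5.76 and 15.3 in MI_vehicle hearts. The groups did not overlap, and with no filter its difference was 2.46 (adjusted p = 0.000793). Adamts8, also below the filter, measured 0.16, 0.255 and 0.48 FPKM in sham_vehicle and 0.28, 2.12 and 3.63 in MI_vehicle hearts, and differed by 1.19 (adjusted p = 0.00383) when no filter was applied.

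The other genes of that substrate group differed in direction. Adamts5, which lies beside Adamts1 on chromosome 16, at 85858157 to 85901125, measured 4.88, 5.24 and 5.61 FPKM in sham_vehicle and 2.26, 3.98 and 4.73 in MI_vehicle hearts. No infarcted heart of that group reached the sham range, and Adamts5 fell by 0.43 (SE 0.12, adjusted p = 0.00937), a call lost when all 18 libraries were fitted together (adjusted p = 0.0613). Adamts15, which neighbours Adamts8 on chromosome 9 at 30899155 to 30922452, measured 1.59, 2.58 and 3.78 against 1.59, 2.68 and 3.52 FPKM and was not called, with a difference of 0.00 (95% interval -0.33 to 0.34). Adamts9 rose by 0.53 (SE 0.17, adjusted p = 0.017), a call lost with quantile normalization (adjusted p = 0.059), and Adamts20 stayed below 1 FPKM in every library.

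Of the remaining ADAMTS genes, the procollagen proteinase Adamts2 rose by 0.49 (SE 0.10, adjusted p = 0.00146). Adamts14, of the same function, was below the filter and had a difference of 0.41 (adjusted p = 0.000735) with none. Adamts6 measured 0.65, 0.835 and 1.08 FPKM in sham_vehicle and 1.19, 1.48 and 2.15 in MI_vehicle hearts without overlap and rose by 0.49 (SE 0.10, adjusted p = 0.00151). Adamts10, its closest relative in the group that acts on fibrillin microfibrils, fell by 0.43 (SE 0.15, adjusted p = 0.0226). Adamts7, which cleaves cartilage oligomeric matrix protein, fell by 0.63 (SE 0.19, adjusted p = 0.0109). The last 2 calls were lost when all 18 libraries were fitted together, and that of Adamts10 also without MI_vehicle replicate 1 or 2 or sham_vehicle replicate 3 or 4, with adjusted p up to 0.0796. Adamts13, which cuts von Willebrand factor, was not called (-0.41, adjusted p = 0.087).

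The ADAMTS-like proteins resemble ADAMTS enzymes but have no proteinase domain. Adamtsl5 had the highest FPKM of them, at 49.4, 60.6 and 66.5 in sham_vehicle and 71.8, 86.5 and 107 in MI_vehicle hearts. The groups did not overlap, and Adamtsl5 rose by 0.56 (SE 0.10, adjusted p = 0.000714). Adamtsl2, a fibrillin-binding member linked to TGF-beta availability, measured 3.99, 4.72 and 6.97 FPKM in sham_vehicle and 1.22, 1.91 and 3.80 in MI_vehicle hearts, also without overlap, and fell by 0.92 (SE 0.18, adjusted p = 0.00104). Adamtsl4 fell by 0.67 (SE 0.18, adjusted p = 0.0063), and its ranges overlapped.

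Some of these genes share exon bases with a neighbour on the other strand in GENCODE mouse release M21. Among them are Mmp19 with Tmem198b (22.8% of its exon bases), Mmp28 with 1700020L24Rik (12.3%), Adam17 with Iah1 (6.9%) and Mmp11 with Chchd10 (6.21%). Whether reads were counted by strand is not given in the sources used here, so reads from such stretches cannot be told apart. Adam1a shares 24% of its exon bases with Mapkapk5 on the same strand, which counting by strand would not resolve. It shares 11.3% with Tmem116 on the other strand.

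**Figure D3:**
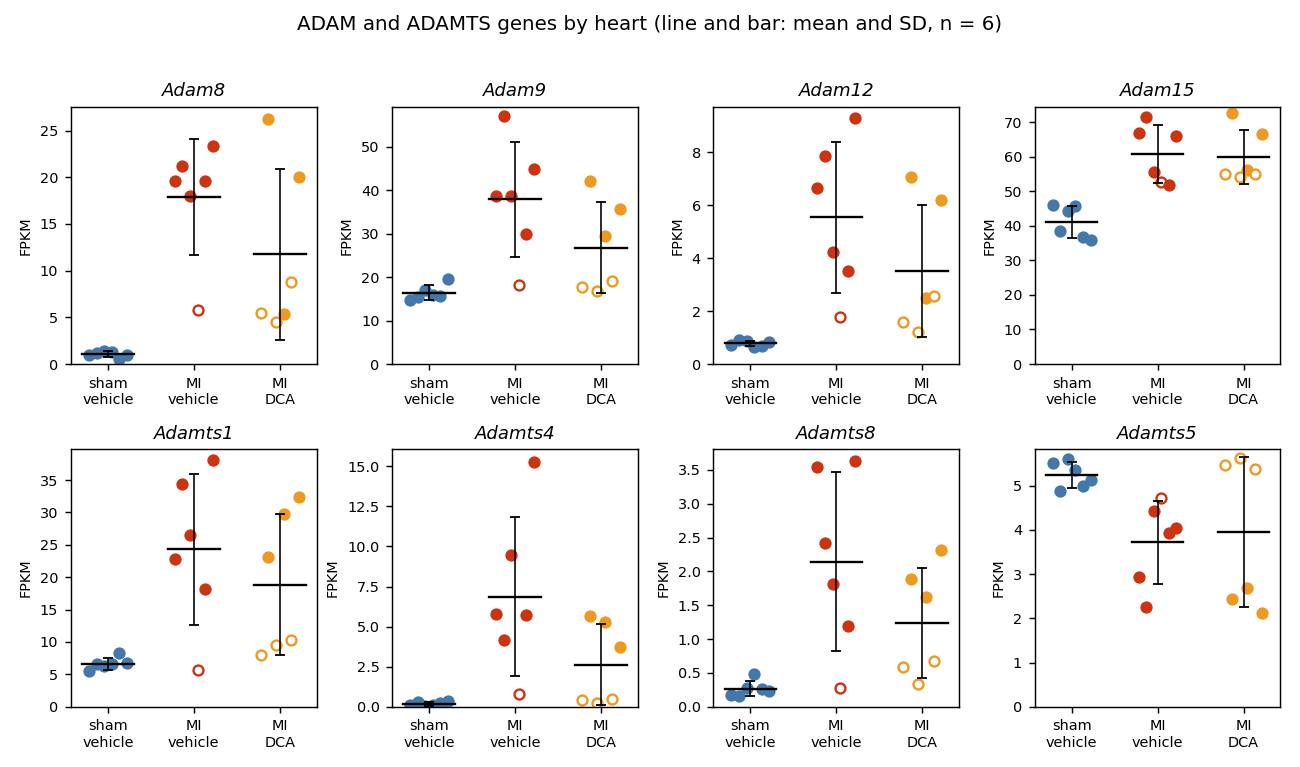
FPKM (vertical axis, from 0) of 8 ADAM and ADAMTS genes in every library, with mean and SD over 6 libraries per group and hollow points for infarcted libraries on the sham side of the first component. Adam8, Adam12, Adam15 and Adamts4 of every MI_vehicle heart lie above the sham hearts, Adamts5 of every MI_vehicle heart lies below them, and Adamts1 of MI_vehicle replicate 4 lies among them at 5.64 FPKM.

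In all, 11 of the 73 genes had every MI_vehicle heart above every sham heart and 6 had every MI_vehicle heart below. Among the genes tested, 8 and 5 of 40 did not overlap, where 16.1% and 5.74% of all genes tested did not overlap in these directions. The 8 include Adam12, which could pass the filter only without overlap, so its place there supports nothing. Mmp9, Mmp12 and Adamts6, with sham medians of 0.965, 0.35 and 0.835 FPKM, passed the filter largely through the infarcted hearts. Adam33, with an MI_vehicle median of 0.58 FPKM, passed it largely through the sham hearts. Their calls are given as descriptions. MI_vehicle replicate 4 was the one nearest the sham hearts for 15 of the 18 genes that rose and 10 of the 14 that fell, and for 18 and 13 it was among the nearest 3. How often this held over all genes was not computed.

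**Figure D4:**
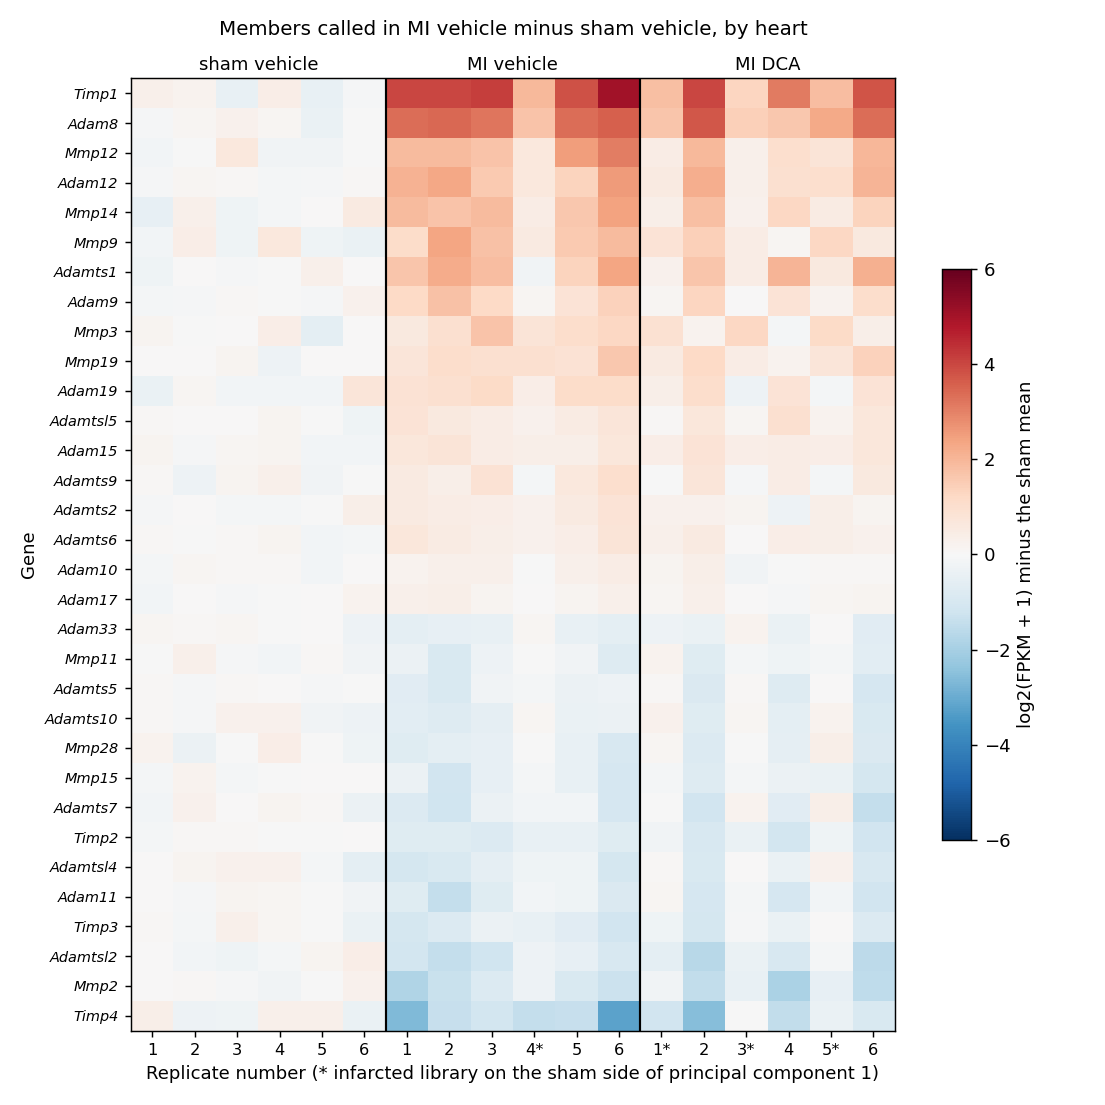
Each library's difference from the sham mean, log2(FPKM + 1), for the 32 genes called between MI_vehicle and sham_vehicle hearts (rows, ordered by fold change) in 18 libraries (columns; asterisks mark infarcted libraries on the sham side of the first component). Red is higher and blue lower, and the columns of MI_vehicle replicate 4 and MI_DCA replicates 1, 3 and 5 are paler than the other infarcted columns in most rows.

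Genes that act with these families were described from lists. Of 9 tested genes of pro-MMP activation and its control, 5 rose and 3 fell. They included the urokinase receptor gene Plaur (2.66, SE 0.34) and the urokinase gene Plau (1.76, SE 0.25), while the proprotein convertase gene Pcsk6 fell by 1.73 (SE 0.23). Of 9 other inhibitors, inducers and clearance receptors, 4 rose and 2 fell. Cd44, which encodes a docking receptor of MMP9, and Tfpi2, a serine proteinase inhibitor gene, rose by 2.02 (SE 0.23) and 1.28 (SE 0.32), and Reck, a membrane-anchored MMP inhibitor gene, fell by 0.29 (SE 0.10). Of 8 genes for partners of ADAM10 and ADAM17, 5 rose and 0 fell, led by the iRhom gene Rhbdf2 (0.82, SE 0.12).

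Substrate genes were mostly higher. Of 25 tested genes for proteins shed by ADAMs, 17 rose and 1 fell, among them the growth factor gene Hbegf (2.65, SE 0.46), the decoy receptor gene Il1r2 (2.32, SE 0.35) and, lower, the scavenger receptor gene Cd163 (-0.91, SE 0.20). Of 20 matrix substrate genes 12 rose and 3 fell, with the osteopontin gene Spp1 at 4.43 (SE 0.51), the tenascin gene Tnc at 3.70 (SE 0.38), the versican gene Vcan at 1.51 (SE 0.17) and the decorin gene Dcn at -1.12 (SE 0.21). Of 7 other metalloproteinases and helpers, 3 rose, among them the procollagen C-proteinase gene Bmp1 (0.60, SE 0.13), and Mme, the neprilysin gene, fell by 0.80 (SE 0.13). Of 7 AP-1 subunit and related genes tested, 7 rose in MI_vehicle hearts, among them Atf3 (2.24, SE 0.31), Fos (1.92, SE 0.18) and Junb (1.84, SE 0.19). Fosb measured 0.06 to 0.44 FPKM in sham_vehicle and 1.2 to 2.73 in MI_vehicle hearts. It could pass the filter only through the infarcted hearts, so its place among the 7 supports nothing. The counts stand beside the 38.3% and 20.1% of all genes called higher and lower. The monocyte and neutrophil markers that moved with them are given above.

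The second comparison set DCA against vehicle within the infarcted hearts. No member of the families was called: 0 of 42 tested were higher and 0 lower by limma, as were 0 of all 12004 genes (0%). Of the 42, 0 were higher and 4 lower at an unadjusted p under 0.05 (Adamts2, Mmp9, Mmp14 and Mmp12), with a smallest adjusted p of 0.407, and over all genes 192 were higher and 1107 lower at that level. Of the 42 differences, 25 were negative and 17 positive, with a median of -0.12 against -0.06 for all genes. No gene of the 73 separated the hearts of these groups, where 0.075% of all genes tested lay wholly higher and 0.467% wholly lower in MI_DCA hearts.

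The intervals show how wide the possible differences are. Timp1 was lower by a difference of -1.19 (95% interval -2.40 to 0.01), with a median of 127 FPKM in MI_DCA and 342 in MI_vehicle hearts. MI_DCA replicates 2, 4 and 6 were at 340, 180 and 288 FPKM and replicates 1, 3 and 5 at 74.1, 50.6 and 74.4. Timp4 differed by 0.79 (-0.19 to 1.77), Mmp9 by -0.76 (-1.41 to -0.12), Mmp14 by -0.74 (-1.47 to -0.01) and Adam8 by -0.75 (-1.70 to 0.19). Adamts2, with the smallest p, differed by -0.36 (-0.61 to -0.10), and the smallest p on the higher side belonged to Timp4, Timp3 (0.31, -0.13 to 0.75) and Adamtsl4 (0.36, -0.16 to 0.88). Mmp2 differed by 0.08 (-0.62 to 0.78) and Timp2 by -0.01 (-0.40 to 0.37). A difference of 1 on the log2 scale thus lay inside the interval for Timp1, Mmp9, Mmp14, Adam8 and Timp4 and outside it for Mmp2 and Timp2.

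Values within the MI_DCA group followed the sets of hearts of the first component in part. Replicates 1, 3 and 5 were all nearer the sham hearts than replicates 2, 4 and 6 for 9 of the 18 genes that rose with infarction and 12 of the 14 that fell. The heart nearest sham was replicate 3 for 10 of the 18, replicate 4 for 5, replicate 1 for 2 and replicate 5 for 1. The share of all genes split in this way was not computed, so these counts are no result about the families. Adamts4, for example, was at 0.44, 0.23 and 0.47 FPKM in replicates 1, 3 and 5 and at 5.67, 5.26 and 3.73 in replicates 2, 4 and 6. Mmp3 went the other way. It was at 18.3, 23.4 and 22.1 FPKM in replicates 1, 3 and 5 and at 10.8, 8.47 and 11.9 in replicates 2, 4 and 6. The MI_DCA hearts on the sham side of the first component were thus the farthest from the sham hearts in this gene. In the MI_vehicle group Mmp3 of replicate 4 was at 16.8 FPKM, the second lowest of 6.

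Without the 4 infarcted libraries on the sham side, still no member was called. The Timp1 difference was then -0.58 (adjusted p = 0.503), and the differences of Mmp9 and Mmp3 were -1.02 and -0.97 (adjusted p = 0.348 and 0.282). With weights for each library estimated from the data, 5 members were called higher and 16 lower in MI_DCA hearts, where 13.5% and 31.2% of all genes were called. That fit gave the lowest weights, 0.27, 0.31 and 0.36, to MI_DCA replicates 2 and 6 and MI_vehicle replicate 4 and the highest, 2.47 to 2.56, to MI_DCA replicates 1 and 5 and MI_vehicle replicate 3. Timp1 differed by -2.09 there (adjusted p = 0.006), against an adjusted p of 0.129 to 0.803 in the other settings.

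**Figure D5:**
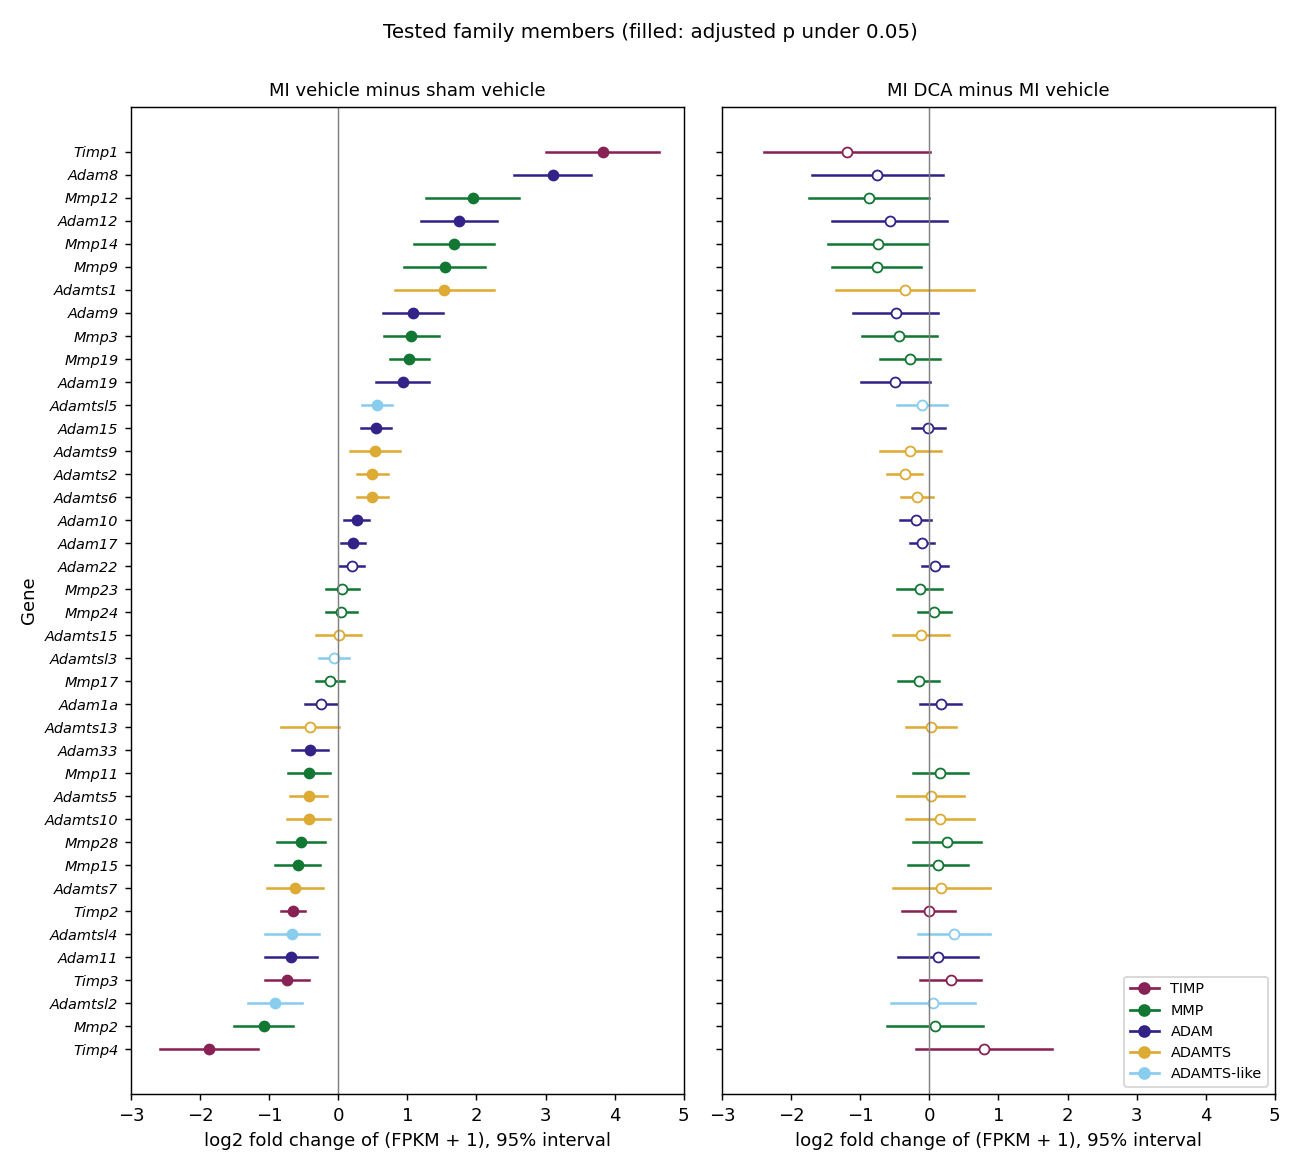
Log2 fold changes of (FPKM + 1) with 95% intervals (horizontal axis) for the 40 genes tested between MI_vehicle and sham_vehicle hearts (left) and for those of them tested between MI_DCA and MI_vehicle hearts (right), coloured by family and filled where called. On the left 18 genes lie above and 14 below 0 with filled points, and on the right no point is filled and Timp1 has an interval from -2.40 to 0.01.

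The last comparison set MI_DCA hearts against the same sham hearts, so it shares them with the first. Of 38 members tested, 11 were higher, where 15.5% of all 11842 genes were called higher, and 5 lower, where 8.33% were called lower. Without MI_DCA replicates 1, 3 and 5 the counts were 12 and 13, and the shares of all genes called rose to 31.7% and 25.3%. The choice of these replicates, which lay on the sham side of the first component, favours such a rise. Those higher were Timp1 (2.63, SE 0.43), Adam8 (2.35, SE 0.36), Adamts1, Adam12, Mmp14, Mmp9, Mmp19, Adam15, Adamtsl5, Adamts6 and Adam22, and those lower were Timp4 (-1.08, SE 0.35), Mmp2, Adamtsl2, Timp2 and Mmp15. Of the members tested, 5 had every MI_DCA heart above every sham heart (Timp1, Adam8, Adam12, Mmp19 and Adam15) and 1, Timp2, every MI_DCA heart below. Over all genes 6.31% and 2.84% did not overlap in these directions. Adam12 could pass the filter only through the MI_DCA hearts here, so its place in both counts supports nothing. Mmp9 and Adamts6, with sham medians of 0.965 and 0.835 FPKM, passed it largely through those hearts.

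These counts varied with the libraries left out, and the shares of all genes called varied with them. Leaving out 1 library at a time gave 4 to 11 members higher and 1 to 7 lower, with 6.27% to 22.0% and 2.67% to 12.6% of all genes. Without MI_DCA replicate 2 there were 4 and 2 (7.46% and 3.27% of all genes), without replicate 4 there were 7 and 2 (8.38% and 2.98%), and without replicate 6 there were 5 and 1 (7.22% and 2.78%). Adam12 left the count through the filter whenever an MI_DCA library was left out. Leaving out sham_vehicle replicates 1, 3 or 4 gave 7 and 3, replicate 2 gave 8 and 3, replicate 5 gave 6 and 2, and replicate 6 gave 7 and 2. The calls of Timp1, Adam8, Mmp19, Adam15 and Timp2 were kept in every alternative. Adam12 was tested in only 15 of the 22 alternatives, none of which left out an MI_DCA library, and the calls of the other 10 were lost in at least 1. Adam9 and Mmp3 were higher by 0.59 and 0.62 without a call (adjusted p = 0.0519 and 0.0692).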

How the data were processed

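RNA from the apex of perfused mouse hearts was made into RNA Access (capture) libraries and read as single reads of 50 bases, per the labels' protocols. Listed in the submitters' processing notes are the build GRCm38.p6 and the tools RSEM 1.2.12, Bowtie2 2.2.5 and DESeq2 1.4.5, without their roles. The annotation release is not given in the sources used here. The deposited gene values were taken as FPKM from the values, since the authors' columns name no unit: their sum differed between libraries (coefficient of variation 3.09%) more than the sum of value times transcript length (0.71%). Counts were not used here. The spacing of low values gave an estimated 8950000 to 10650000 reads in sham_vehicle, 10450000 to 13800000 in MI_vehicle and 10100000 to 12850000 in MI_DCA libraries, searched only between 8000000 and 16000000. Genes above 0 numbered 15730 to 16229.

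Of the gene identifiers, 19051 matched a RefSeq table of GRCm38.p6, which gave coordinates, and 26 symbols that had become dates were restored. Groups came from the tissue and treatment labels and numbers from the titles. For every comparison log2(FPKM + 1) of the 2 groups concerned was fitted separately (limma 3.58.1, R 4.3.3, trend over intensity), with Benjamini-Hochberg adjustment over all genes tested. The fit was tested on simulated data. Alternatives were a pseudocount of 0.1, other filters, 2 scalings, a fit of all 18 libraries, library weights, no intensity trend, the replicate block and leaving out each library. A fit without the 4 infarcted libraries on the sham side of the first component was added after seeing the data.

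The genes, the lists and markers were chosen with earlier results of these data known. The rule for named genes took all Timp genes and the Mmp genes past the filter or with a group median of at least 0.5 FPKM. It added the 8 called ADAM, ADAMTS and ADAMTS-like genes with the largest change in each direction, the 3 smallest p where none was called, and the 3 largest changes of each list. Adam1a, Adam10, Adam17, Adam23, Adamts2, Adamts4, Adamts6, Adamts8, Adamts13, Adamts14, Adamts15, Adamts20, Mmp10, Mmp20, Pcsk6, Reck, Pdgfra, Dpt, Col1a1, Cd163 and Dcn were named for their role after values were seen. So were the markers Lum, Tcf21, Actc1, Tnnt2, Mpo, Elane, Camp, Ltf and Ngp. Fosb was named for its place at the filter. A gene of the lists that the rule took is not reported here. Protein sequences were not analysed here.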

Additional observations from a re-analysis of the deposited data

Results flagged for a closer look

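In groups of 6 hearts, a highest or lowest value was picked out where its gap to the next value, divided by the range of the group, passed Dixon's critical value for 6 values. Of 132 groups of tested genes, 11 (8.33%) did so, and chance gives about 5%. In sham_vehicle hearts the values were 9.89 FPKM for Adam19, 8.56 for Adamts2 (both highest) and 0.76 for Adam33 (lowest), all in replicate 6. Replicate 3 was highest at 1.22 for Mmp12 and 1.87 for Adam22, and replicate 1 at 5.36 for Mmp24. In MI_vehicle hearts replicate 4 was lowest at 5.74 FPKM for Adam8, where the next heart was at 18.03, and highest at 1.36 for Adam33, where the next was at 0.62. Replicate 6 was highest at 8.93 for Mmp19. In MI_DCA hearts replicate 4 was lowest at 5.12 FPKM for Adamts2 and replicate 5 highest at 6.15 for Mmp24. MI_vehicle replicate 4 is the heart of its group that lay on the sham side of the first principal component.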

How the results depend on the processing

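Between MI_vehicle and sham_vehicle hearts, 16 to 18 members were higher and 12 to 15 lower when 1 library was left out. Of all genes, 34.0% to 42.0% and 17.2% to 23.1% were then called. In the other settings 15 to 27 and 11 to 17 members were called, with 26.7% to 42.3% and 14.2% to 31.2% of all genes. The counts were 27 and 15 of 69 with no filter (27.8% and 14.2% of all genes), 16 and 16 with median-ratio scaling and 15 and 17 with quantile normalization. Of the 18 and 14 calls, 15 and 10 were kept in every alternative in which the gene was tested, but Adam12 and Adam33 were tested in only 15 of 22. The scalings moved the share of all genes called from 38.3% higher and 20.1% lower to 28.2% and 28.7% (median ratio) and 26.7% and 31.2% (quantile).

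Between MI_DCA and MI_vehicle hearts, the counts were 0 and 0 in every setting except library weights, which gave 5 and 16 (13.5% and 31.2% of all genes). Between MI_DCA and sham_vehicle hearts, 11 were higher and 5 lower (15.5% and 8.33% of all genes). Leaving out 1 library gave 4 to 11 and 1 to 7, with 6.27% to 22.0% and 2.67% to 12.6% of all genes. The lower count was 1 with library weights, 3 with all 18 libraries in one fit and 13 without the infarcted libraries on the sham side of the first component, where 4.77%, 7.93% and 25.3% of all genes were called lower. The cause was not tested. No difference past the threshold changed its sign. The replicate block gave 7 higher and 4 lower in that comparison (9.49% and 4.83% of all genes) and changed no count elsewhere. The labels do not say what the shared numbers mark, and a check did not show that they pair the samples. Deviations of same-numbered libraries correlated at -0.05 to 0.14, -0.44 to 0.69 and -0.09 to 0.22 in the 3 comparisons. In each of them only number 6 correlated best with its own number. The check cannot exclude pairing, because the infarcted hearts of a group differed widely.

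No counting interval can be had from FPKM alone, so low genes such as Mmp10 carry an unknown counting error.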

Other observations

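Shares of single transcripts varied widely within groups. One of the 6 RefSeq transcripts of Adam8 held 76.2% to 100% of its FPKM in sham_vehicle hearts, 28.9% to 99.0% in MI_vehicle and 0% to 98.4% in MI_DCA hearts. Isoform differences between the groups were not compared.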
